A study of Rattus norvegicus with 9 samples.

Results

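Expression of the hedgehog receptor and GLI pathway was followed in lung fibroblasts of rat pups (Rattus norvegicus) at 3 postnatal ages. The pathway was taken as Smo, the signalling receptor, Sufu, the cytoplasmic inhibitor of GLI proteins, the transcription factors Gli1, Gli2 and Gli3, the receptor Ptch1, and Hhip, a surface protein that binds and sequesters the ligand. Of these 7 genes, 5 had at least 1 probe set that the platform annotation assigned to that gene alone. They held 6 probe sets, of 14217 named genes and 31042 probe sets in all. Ptch1 and Gli3 were not analysed here. A gene was represented by its brightest probe set over the arrays, and only Smo had more than 1.

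The 9 samples came from postnatal day 2 (saccular lung, before septation), day 7 (septation in progress) and day 21 (septation over), with 3 samples per day. Litter-mates were pooled for a sample, 5 pups at day 2 and 4 at the later days, and every sample had its own Affymetrix array. Cells were freshly dispersed with enzymes, and those that attached to plastic within a short plating were lysed, so other adherent cells may be among them. The labels used here give no strain or sex.

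Hedgehog ligands are secreted mainly by epithelium in the developing lung and act on the mesenchyme beneath it. Without ligand, PTCH1 holds SMO inactive, and the GLI proteins are kept by SUFU or cut into repressors. With ligand, SMO gathers in the primary cilium and full-length GLI proteins, GLI2 foremost among them in mouse, switch on targets that include Gli1, Ptch1 and Hhip. Gli1 transcript is therefore a common readout of the pathway, and Hhip and Ptch1 feed back on it.

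The promoter windows of 3 genes that the results turn on are shown because Gli2 and Smo were lower at day 21 while Hhip, a target gene, was not. They are RefSeq windows of build GRCr8, from 250 bases before to 50 bases after the annotated gene start, written 5′ to 3′ on the gene's strand, with CpG dinucleotides in capitals. Gli2 lies at chr13:32716369-32716668 on the minus strand, Smo at chr4:59310834-59311133 on the plus strand and Hhip at chr19:44767788-44768087 on the plus strand.
Gli2: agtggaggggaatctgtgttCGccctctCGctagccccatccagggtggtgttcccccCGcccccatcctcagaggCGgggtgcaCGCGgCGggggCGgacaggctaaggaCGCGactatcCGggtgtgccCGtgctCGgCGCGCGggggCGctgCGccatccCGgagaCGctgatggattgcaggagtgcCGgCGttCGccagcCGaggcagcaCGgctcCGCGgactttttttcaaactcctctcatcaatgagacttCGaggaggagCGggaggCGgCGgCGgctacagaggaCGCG
Smo: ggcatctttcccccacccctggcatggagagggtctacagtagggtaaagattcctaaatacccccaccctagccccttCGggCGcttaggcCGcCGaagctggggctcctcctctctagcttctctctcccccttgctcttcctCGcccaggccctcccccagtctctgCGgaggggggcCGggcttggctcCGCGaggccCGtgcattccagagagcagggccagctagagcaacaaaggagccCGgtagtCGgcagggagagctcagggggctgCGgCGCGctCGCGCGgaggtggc
Hhip: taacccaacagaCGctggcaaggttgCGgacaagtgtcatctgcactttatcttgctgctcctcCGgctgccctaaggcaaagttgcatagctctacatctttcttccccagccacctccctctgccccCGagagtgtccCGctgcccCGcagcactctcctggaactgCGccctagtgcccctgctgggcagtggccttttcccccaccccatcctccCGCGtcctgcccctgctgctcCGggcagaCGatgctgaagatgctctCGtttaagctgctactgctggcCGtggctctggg

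The Gli2 window held 34 CpGs at 68.3% G and C, the Smo window 18 at 67.0% and the Hhip window 13 at 61.7%. The median of the 33469 promoter windows was 7 CpGs and 51.7% G and C. The GLI consensus GACCACCCA, searched for on both strands, was in 0.385% of all windows. Of 6 listed genes with a window it was found once in that of Ptch1, and in none of the 4 windows of measured genes (Gli2, Smo, Hhip and Sufu). This says only that these letters are not in those 300 bases. The last 50 bases of the Hhip window begin with atg, the letters of a start codon. Its annotated start may therefore be that of the coding sequence, and its window may not hold the promoter.

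Gli1 and Gli2 were about 4-fold lower at day 21 than at day 7, Smo was lower on both of its probe sets by unequal amounts, and Hhip and Sufu did not pass the test in any comparison. Of the 5 genes, none passed for day 7 against day 2 by limma, where 11.4% of all 14217 genes were called, and none had an unadjusted p under 0.05. By the same test 3 were lower and none higher at day 21 against day 7, and 2 were lower at day 21 against day 2. Across all genes 38.1% were called at day 21 against day 7, 24.4% lower and 13.7% higher. Against day 2 the share was 24.1%, with 15.3% lower and 8.8% higher, and for day 7 against day 2 the directions were 7.02% higher and 4.41% lower. For 3 of the 5 genes (Gli1, Gli2 and Smo) the day 21 arrays lay wholly below those of day 7 and of day 2, which 30.7% and 24.5% of all genes did (wholly above, 20.5% and 18.5%). The median log2 change of the 5 genes was 0.08 for day 7 against day 2, where all genes had 0.07. It was -0.55 for day 21 against day 7 (all genes -0.01) and -0.46 for day 21 against day 2 (all genes 0.02). All values are log2 of the deposited intensity, errors are SEs from limma unless stated, n = 3 arrays per day, and a gene was called at an adjusted p under 0.05. Fewer cells of a type and less RNA per cell cannot be told apart in these bulk samples.

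**Figure D1:**
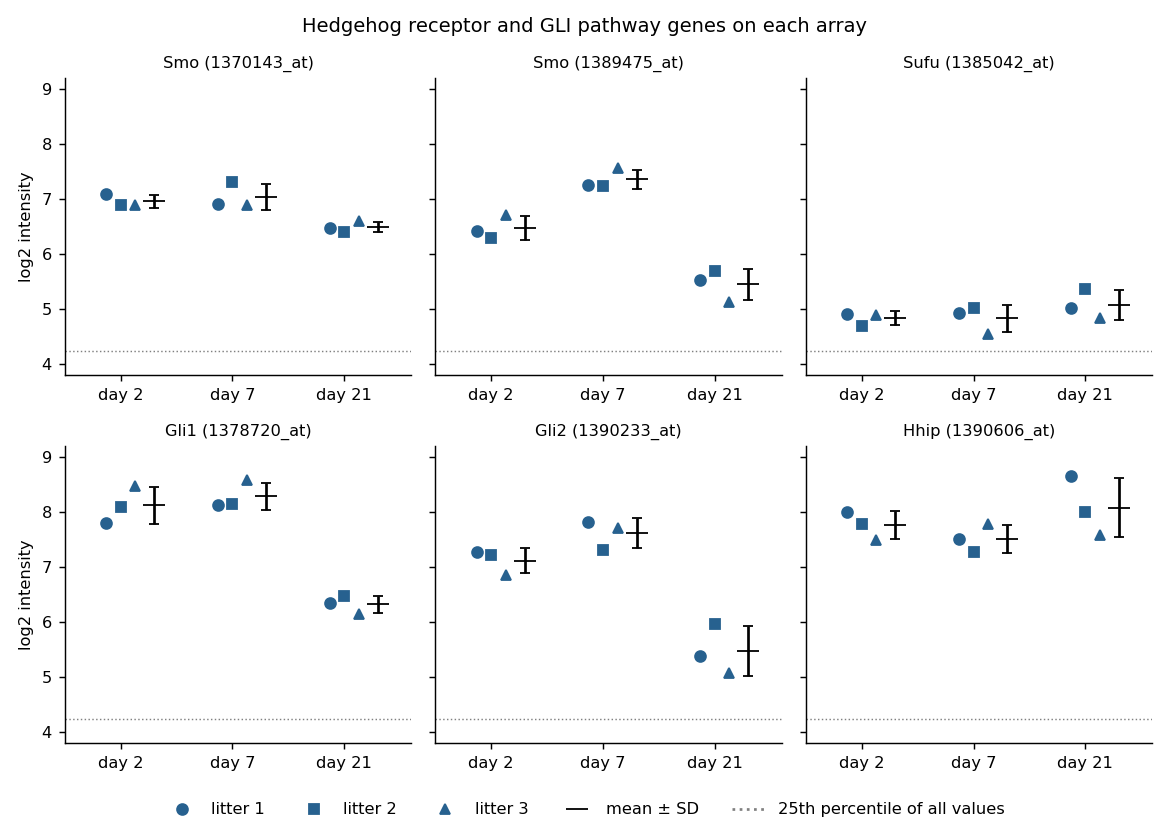
Log2 intensity (vertical axis) of the 6 probe sets on every array, by postnatal day, with symbols for the litter number, bars for mean ± SD (n = 3) and a dotted line at log2 4.25, the 25th percentile of all values. Gli1, Gli2 and both Smo probe sets lie lower at day 21 than at either earlier day with no overlap of arrays, while the days overlap for Hhip and Sufu.

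Gli1, the GLI factor that is itself a target of the pathway, read log2 7.80, 8.10 and 8.48 on the day 2 arrays of litters 1, 2 and 3, 8.14, 8.15 and 8.58 at day 7, and 6.35, 6.47 and 6.16 at day 21. The arrays of days 2 and 7 overlapped and every day 21 array was below all 6 of them. Its rank on an array was at the 64.8th to 67.0th percentile of probe sets at day 21, against the 86.4th to 89.3rd at day 7. The day 21 level was 3.9-fold lower than at day 7 (log2 change -1.96 ± 0.20, limma adjusted p = 1.89e-05) and 3.48-fold lower than at day 2 (-1.80 ± 0.20, adjusted p = 0.000107). Between days 7 and 2 the change was 0.16, with a 95% interval of -0.27 to 0.60 (adjusted p = 0.724).

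Gli2, the main activator of the pathway in mouse, read 7.28, 7.22 and 6.86 at day 2, 7.83, 7.31 and 7.72 at day 7, and 5.39, 5.97 and 5.07 at day 21. All day 7 arrays were above all day 2 arrays, by as little as 7.31 against 7.28, and all day 21 arrays were lower than both. Arrays that do not overlap in this direction were seen for 21.1% of all genes between days 7 and 2 (11.9% in the opposite direction), and Gli2 was not called there (log2 change 0.50 ± 0.23, 95% interval -0.01 to 1.01, adjusted p = 0.235). At day 21 it was 4.43-fold lower than at day 7 (-2.15 ± 0.23, adjusted p = 3.09e-05) and 3.12-fold lower than at day 2 (-1.64 ± 0.23, adjusted p = 0.000598). The day 21 arrays of Gli2 spread more (SD 0.45) than those of Gli1 (SD 0.15).

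Smo, the seven-pass protein that passes the signal inside, was read by a pair of probe sets that differed in size of change. The brighter one, 1370143_at, read 7.10, 6.90 and 6.89 at day 2, 6.92, 7.31 and 6.90 at day 7, and 6.48, 6.41 and 6.60 at day 21. It was 1.46-fold lower at day 21 than at day 7 (log2 change -0.55 ± 0.16, adjusted p = 0.0211), and its value against day 2, -0.46 ± 0.16, did not pass (adjusted p = 0.063). The other, 1389475_at, read 6.43, 6.30 and 6.71 at day 2, 7.27, 7.25 and 7.57 at day 7, and 5.53, 5.69 and 5.14 at day 21, so that no arrays of different days overlapped. On that probe set Smo rose 1.85-fold to day 7 from day 2 (0.88 ± 0.18, adjusted p = 0.0123). It was 3.77-fold lower at day 21 than at day 7 (-1.92 ± 0.18, adjusted p = 1.32e-05) and 2.04-fold lower than at day 2 (-1.03 ± 0.18, adjusted p = 0.00258). Within an array, the second minus the first probe set was -0.95, -0.73 and -1.46 at day 21, against 0.36, -0.06 and 0.67 at day 7 (difference of means -1.37, exact two-sided permutation test p = 0.1, the smallest that 3 against 3 arrays allow). The brighter probe set's call at day 21 against day 7 rested on single arrays. Leaving out day 7 replicate 2 gave -0.41 (adjusted p = 0.101), day 21 replicate 1 gave -0.54 (0.0578 after adjustment) and day 21 replicate 2 gave -0.50 (0.0662 after adjustment). Median centring of the arrays also ended it (-0.44, adjusted p = 0.104), as did a second, quantile normalization (-0.36, adjusted p = 0.119).

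**Figure D2:**
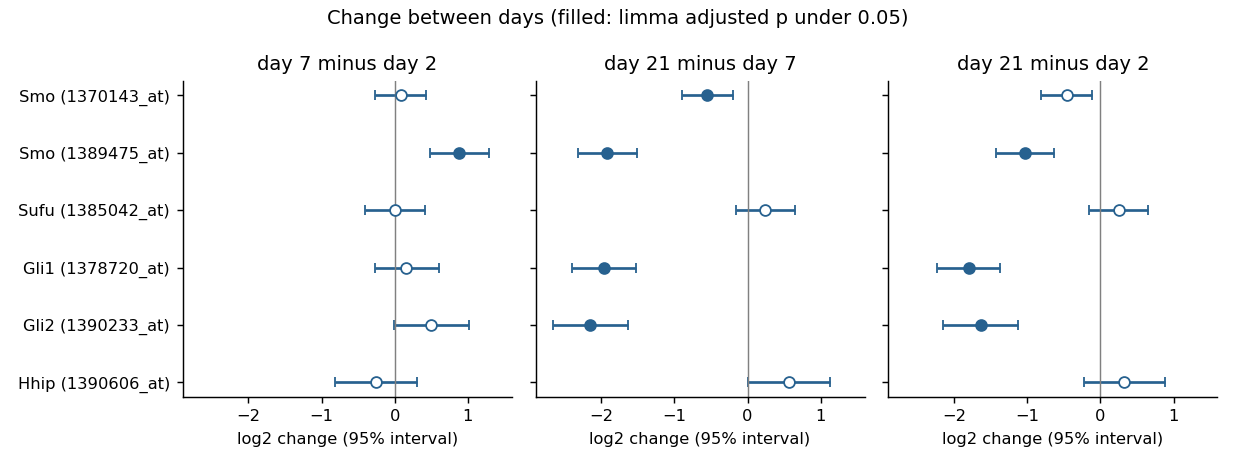
Log2 change (horizontal axis, with 95% intervals from limma) of the 6 probe sets in each comparison, as the later day minus the earlier, with filled points for an adjusted p under 0.05. At day 21 against day 7, Gli1, Gli2 and the second Smo probe set lie near -2, the first Smo probe set at -0.55, Sufu at 0.24 and Hhip at 0.57.

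Hhip, which binds hedgehog ligand at the cell surface and is induced by the pathway, read 8.01, 7.79 and 7.50 at day 2, 7.51, 7.27 and 7.78 at day 7, and 8.66, 8.01 and 7.59 at day 21. All 3 days overlapped, and the day 21 arrays spread widest (SD 0.54, against 0.26 at day 7). Its log2 change was 0.57 ± 0.25 for day 21 against day 7 (95% interval 0.01 to 1.13, adjusted p = 0.119) and 0.32 ± 0.25 against day 2 (-0.23 to 0.88, adjusted p = 0.408). A fall of the size seen for Gli1 in the same comparison, -1.96, lies outside that interval. Hhip passed as higher at day 21 than at day 7 with quantile normalization on top (0.75, adjusted p = 0.0245) and when day 21 replicate 3 was left out (0.82, adjusted p = 0.0283). Leaving out day 21 replicate 1, the highest array, gave 0.28 instead (adjusted p = 0.408), and 0.03 against day 2 (adjusted p = 0.932). Sufu, which retains GLI proteins in the cytoplasm, was dim, at the 35.4th to 47.3rd percentile of probe sets on an array. It read 4.92, 4.69 and 4.90 at day 2, 4.94, 5.02 and 4.55 at day 7, and 5.02, 5.37 and 4.85 at day 21. These values were above log2 4.25, the 25th percentile of all values. The days overlapped, and the change of Sufu was 0.24 ± 0.18 at day 21 against day 7 (95% interval -0.16 to 0.65, adjusted p = 0.377).

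The order of days was thus day 7, day 2 and day 21 from high to low for Gli1, Gli2 and both Smo probe sets, and day 21, day 2 and day 7 for Hhip. Day 7 and day 2 did not differ beyond the test for Gli1, Gli2 and the brighter Smo probe set. For that probe set day 2 and day 21 did not either, while day 21 was called lower than day 7. Hhip and Sufu did not pass between any days. The comparisons share arrays, so their changes are not independent of each other.

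Markers of cell types were set beside these values. The 14 fibroblast markers averaged log2 10.29 to 10.59 per array at day 2, 10.66 to 10.72 at day 7 and 9.83 to 10.22 at day 21, and Col1a1, of the main fibrous collagen, was at 12.44, 12.21 and 12.62 on these days. None of them stayed below log2 4.25 on all arrays. At day 21 against day 7, 6 of the 14 were lower, 1 was higher and 7 did not pass, where 24.4% of all genes were lower and 13.7% higher. Tcf21, a transcription factor of lung fibroblasts, was at 7.68 against 10.12 and Pdgfra, a receptor of alveolar fibroblasts, at 7.75 against 9.15. The largest rise was that of Dcn, at 11.95 against 10.66. Lum was at 10.43 against 10.25, Col3a1 at 13.18 against 13.07 and Vim at 12.58 against 12.57. The summed level of the 14 was log2 15.02 to 15.39 at day 21 and 15.49 to 15.67 at day 7.

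Macrophage and proliferation markers moved in the comparison that held the falls of Gli1 and Gli2. At day 21 against day 7, 24.4% of all genes were lower and 13.7% higher, and against day 2 15.3% were lower and 8.8% higher. All 16 macrophage markers measured were higher at day 21 than at day 7, their summed level being log2 14.94 to 15.27 against 12.97 to 13.66, and none was below log2 4.25 on all arrays. Against day 2 (14.33 to 14.55) 5 of the 16 were higher at day 21. Of 21 proliferation genes 19 were lower at day 21 than at day 7 (summed log2 11.70 to 11.88 against 12.60 to 12.68), and 18 were lower than at day 2 (12.33 to 12.47). Of 10 smooth muscle and myofibroblast markers 4 were higher at day 21 than at day 7 (12.53 to 13.10 against 12.30 to 12.76), but 2 without day 7 replicate 3, day 21 replicate 1 or day 21 replicate 2. Of 9 endothelial markers 7 were lower (9.02 to 9.45 against 10.16 to 10.44). Their part in the pathway's changes was not tested.

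**Figure D3:**
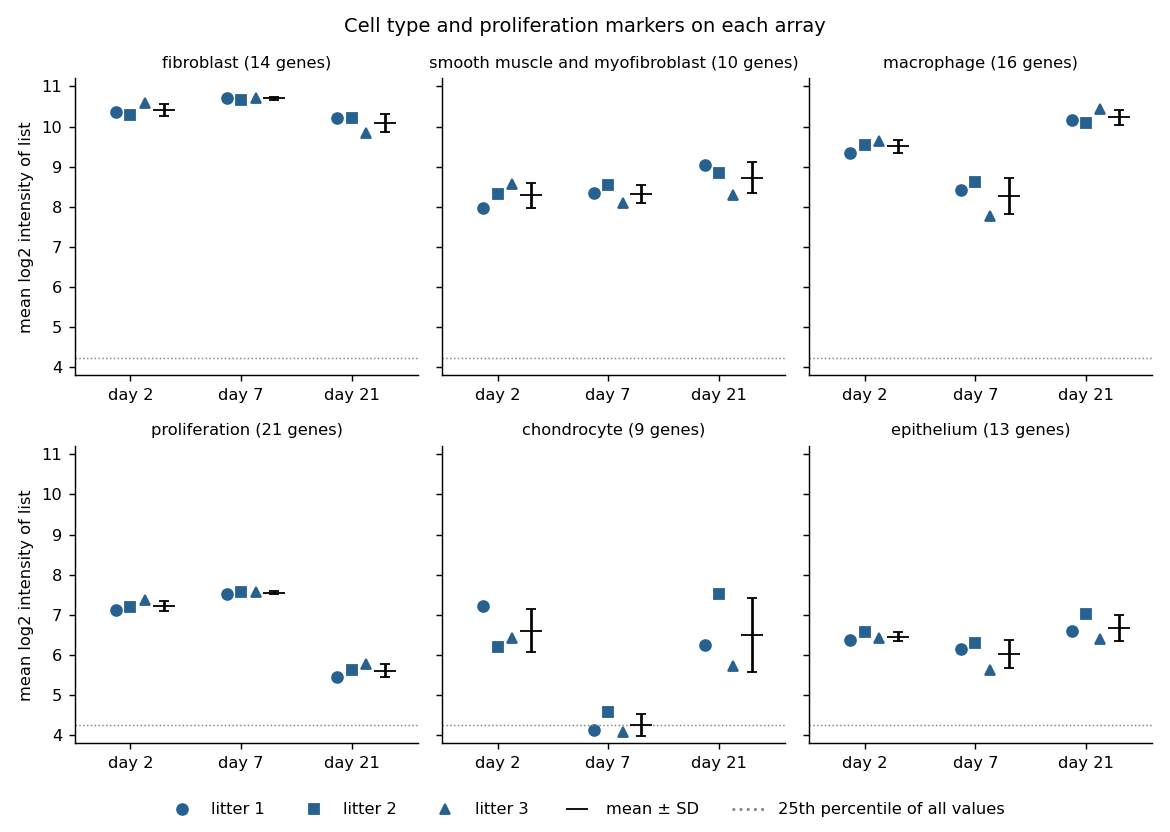
Mean log2 intensity (vertical axis) of 6 marker lists on every array, by postnatal day, with symbols for the litter number, bars for mean ± SD (n = 3) and a dotted line at log2 4.25. The fibroblast list stays between 9.83 and 10.72, the proliferation list is lowest at day 21, and the macrophage and chondrocyte lists are lowest at day 7.

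The ligand genes Shh and Ihh were near the low end of all values in these cells. Of 6 measured ligand and ligand-release genes, 2 were higher at day 21 than at day 7, none was lower and 4 did not pass (median log2 change 0.62). Across all genes 13.7% were higher and 24.4% lower. The 2 became 4 with median centring, 3 without day 2 replicate 3, and 1 without day 2 replicate 2, day 7 replicate 2, day 21 replicate 2 or day 21 replicate 3. Only 3 of the 6 averaged at least log2 4.25 over the arrays, and Ihh, at 4.15, was not among them. Shh, the ligand made by lung epithelium, read 4.61, 3.79 and 4.11 at day 2, 4.38, 4.53 and 3.97 at day 7 and 4.44, 4.94 and 5.23 at day 21, and did not pass in any comparison (0.57 at day 21 against day 7, adjusted p = 0.114). Ihh, the ligand of growing cartilage, read 4.45, 4.38 and 4.52 at day 21 and 4.23, 3.82 and 3.13 at day 7, and its rise of 0.72 ± 0.25 (adjusted p = 0.045) lost its call without any single array of either day (adjusted p = 0.0946, 0.0816 and 0.113 without day 21 replicates 1, 2 and 3, 0.0769 and 0.158 without day 7 replicates 2 and 3), except day 7 replicate 1. It was lost without day 2 replicate 2 too (adjusted p = 0.0599). Of 9 chondrocyte markers 7 were higher at day 21 than at day 7 (summed log2 9.46 to 11.67 against 7.41 to 7.89). Of 13 epithelial markers 5 were higher and 1 lower (summed log2 11.36 to 12.10 against 10.09 to 10.79), with Nkx2-1 below log2 4.25 on all arrays, and 2 of 5 mesothelial markers were higher (9.30 to 9.97 against 7.60 to 8.44). The part of these cells was not tested. Dhh averaged 5.50 at day 2, 5.65 at day 7 and 5.39 at day 21 and did not pass. Scube1, a secreted protein of the family that helps release the ligand, rose by 1.18 ± 0.22 to day 21 from day 7 (6.45, 6.78 and 6.63 against 5.68, 5.69 and 4.96, adjusted p = 0.00147) and by 1.43 ± 0.22 from day 2 (adjusted p = 0.00102). The mean of its probe sets did not pass against day 7 (0.33, adjusted p = 0.178) and gave 0.76 against day 2.

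Co-receptors and other surface proteins of the pathway divided into those that fell and those that did not pass. Of 7 co-receptors and surface binders measured, 3 were lower at day 21 than at day 7 and 2 were lower than at day 2, with none higher. Across all genes 24.4% were lower and 13.7% higher against day 7, and 15.3% lower and 8.8% higher against day 2. The median log2 change was -0.67 against day 7, but -0.17 without day 21 replicate 3 and -0.19 with the mean of a gene's probe sets. Against day 2 it was -0.46, and -0.26 without day 21 replicate 3. Boc, a co-receptor that helps the ligand reach PTCH1, read 10.53, 10.43 and 10.24 at day 2, 10.43, 10.19 and 10.77 at day 7, and 9.54, 9.62 and 8.95 at day 21. It fell by 1.09 ± 0.21 on the log2 scale against day 7 (adjusted p = 0.00178) and by 1.03 ± 0.21 against day 2 (adjusted p = 0.00555), with no overlap. Gpc3, a glypican that in mouse competes with PTCH1 for the ligand, read 10.40, 9.76 and 8.94 at day 21, against 11.68, 11.29 and 11.86 at day 7, a change of -1.91 ± 0.31 (adjusted p = 0.000495). Its relative Gpc4 was higher at day 7 than at day 2 (0.88 ± 0.20, adjusted p = 0.0184) and lower at day 21 than at day 7 (-1.35 ± 0.20, adjusted p = 0.000294). The rise was not called when day 2 replicate 1, day 2 replicate 3 or day 7 replicate 2 was left out (adjusted p = 0.062, 0.0548 and 0.0783 in that order). The co-receptors Gas1 and Cdon did not pass. Gas1 was at 6.21 at day 21 and 5.76 at day 7, and Cdon at 4.35 and 4.11.

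**Figure D4:**
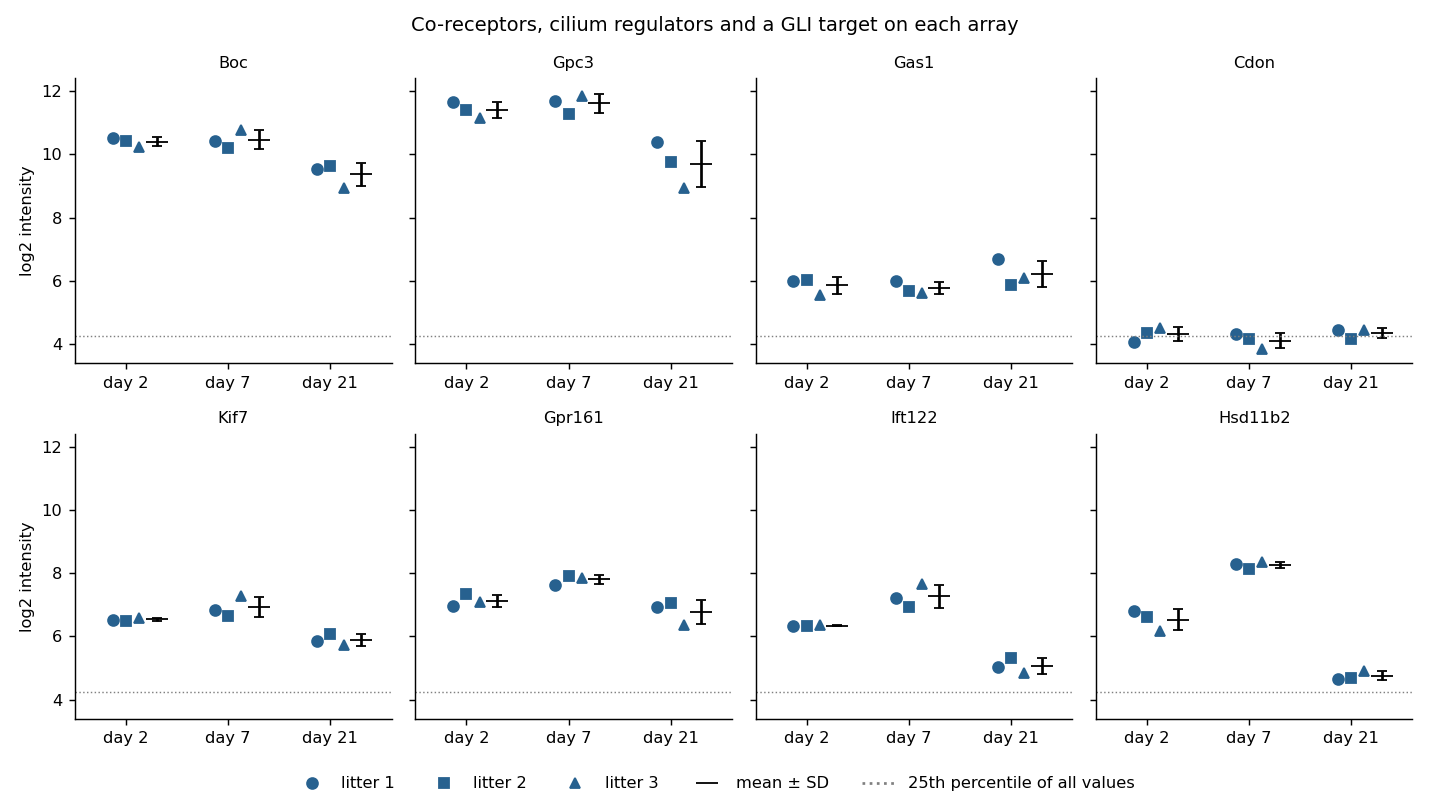
Log2 intensity (vertical axis) of 8 pathway genes on every array, by postnatal day, with symbols for the litter number, bars for mean ± SD (n = 3) and a dotted line at log2 4.25. Boc and Gpc3 are lowest at day 21, Gas1 and Cdon overlap between days, and Ift122 and Hsd11b2 are highest at day 7 and lowest at day 21.

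Proteins that act on GLI inside the cell were called in shares not far from those of all genes. Of 21 measured, 7 were lower and 3 higher at day 21 than at day 7, where 24.4% of all genes were lower and 13.7% higher, and 4 lower and 1 higher than at day 2 (15.3% and 8.8% of all genes). The medians were -0.28, or -0.11 without day 21 replicate 3, and -0.27, or -0.14 without that array and -0.15 without day 2 replicate 3. The 4 lower against day 2 were 1 without day 2 replicate 1, day 2 replicate 2 or day 21 replicate 3 and 2 without day 2 replicate 3 or day 21 replicate 1. For day 7 against day 2 only Numb was called. Kif7, the kinesin of the cilium tip that acts on GLI and SUFU, was lower at day 21 than at day 7 by log2 -1.04 ± 0.18 (5.84, 6.08 and 5.73 against 6.83, 6.66 and 7.27, adjusted p = 0.000831). Gpr161, a ciliary receptor that in mouse restrains the pathway through protein kinase A, fell by 1.02 ± 0.20 (6.94, 7.05 and 6.35 against 7.64, 7.91 and 7.85, adjusted p = 0.00192), and Prkacb, a catalytic subunit of that kinase, by 1.04 ± 0.16 (adjusted p = 0.000357). Dyrk2, a kinase reported to act on GLI2, fell by 1.11 ± 0.17 against day 7 and by 1.20 ± 0.17 against day 2 (adjusted p = 0.000371 and 0.000608). Grk2, the kinase that phosphorylates SMO in mammals, was higher at day 21 than at day 7, at 6.16, 6.52 and 6.63 against 5.50, 5.59 and 5.25 (0.99 ± 0.22, adjusted p = 0.00492). It was also called against day 2 (0.75 ± 0.22, adjusted p = 0.0353), a call that was lost without day 2 replicate 1 or 2 or day 21 replicate 2 or 3 (adjusted p = 0.0919, 0.14, 0.0968 and 0.118). Numb, an adaptor that marks GLI1 for breakdown, was lower at day 7 than at day 2 (-0.64 ± 0.14, adjusted p = 0.0156), except without day 2 replicate 2 or day 7 replicate 2 (adjusted p = 0.0709 and 0.0575). Against day 2, the day 21 falls of Kif7 (-0.65 ± 0.18, adjusted p = 0.0246) and Prkacb (-0.57 ± 0.16, adjusted p = 0.028) were lost with median centring of the arrays (adjusted p = 0.0573 and 0.0741). Leaving out a single array also ended them, for Kif7 each array of days 2 and 21 except day 21 replicate 2 (adjusted p = 0.0609 to 0.0859) and for Prkacb day 2 replicate 1, day 2 replicate 2 or day 21 replicate 3 (0.0852, 0.0913 and 0.103).

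Genes of the primary cilium, where SMO and GLI proteins act, were called mostly in 1 direction per comparison. Of 35 measured genes of the cilium and of intraflagellar transport, the traffic along it, 15 were higher at day 7 than at day 2. None was lower and 20 did not pass (median log2 change 0.55), where 7.02% of all genes were called higher and 4.41% lower. At day 21, 25 were lower than at day 7, and 1, Ofd1, was higher. In that comparison 9 did not pass (median -0.97), where 24.4% of all genes were called lower and 13.7% higher. Against day 2, 12 were lower and 1 higher at day 21 (median -0.33), where 15.3% of all genes were called lower and 8.8% higher. The count of 15 was 6 with each array centred on its median and 9 without day 2 replicate 2. It was 10 without day 2 replicate 3 or any 1 array of day 7. At day 7 against day 2, 10 of 16 macrophage markers were lower (summed log2 12.97 to 13.66 at day 7 against 14.33 to 14.55 at day 2). So were 6 of 9 chondrocyte markers (7.41 to 7.89 against 10.12 to 11.19), and 5 of 21 proliferation genes were higher. Their part was not tested.

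Ift122, of the complex that carries cargo back from the cilium tip, read 6.33, 6.32 and 6.36 at day 2, 7.22, 6.94 and 7.65 at day 7 and 5.04, 5.32 and 4.83 at day 21, with no overlap between days. Its change was -2.21 ± 0.20 at day 21 against day 7 (adjusted p = 7.3e-06) and -1.28 ± 0.20 against day 2 (adjusted p = 0.00101). The mean of its probe sets gave -1.31 and -0.67, and both changes stayed called in all 16 alternatives (highest adjusted p = 7.32e-05 and 0.00553). Dync2li1, a chain of the retrograde dynein motor, read 5.50, 5.95 and 5.51 at day 21, against 7.57, 7.51 and 7.42 at day 7 (-1.85 ± 0.19, adjusted p = 2.28e-05), and had risen to day 7 from day 2 by 1.02 ± 0.19 (adjusted p = 0.00766). Ift172, of the complex that moves outward, was at 6.24, 6.07 and 6.07 at day 7, against 5.05, 4.92 and 5.09 at day 2 (1.11 ± 0.14, adjusted p = 0.00136). Bbs1, of the BBSome coat that sorts ciliary membrane proteins, rose by 1.16 ± 0.24 and Ift81 by 0.94 ± 0.17 in that comparison (adjusted p = 0.0108 and 0.00692), and Bbs1 was lower at day 21 than at day 7 (-1.58 ± 0.24, adjusted p = 0.0003), as was Ift27 (-1.57 ± 0.14, adjusted p = 7.91e-06). Ift27 and Ift74 fell at day 21 against day 2 by 0.93 ± 0.14 and 1.04 ± 0.15 (adjusted p = 0.000895 and 0.000716). Ofd1, a centriole protein, was higher at day 21 than at day 2 by 1.12 ± 0.23 (5.93, 6.05 and 6.33 against 5.53, 4.75 and 4.66, adjusted p = 0.00608). The motor subunits Kif3a and Kif3b did not pass, at 0.03 and -0.15 for day 21 against day 7. Of 5 measured markers of multiciliated airway cells, none was called at day 7 against day 2. At day 21 against day 7, 1 was lower, Tekt1, which averaged 4.98 at day 2, 5.60 at day 7 and 4.26 at day 21. Across all genes 24.4% were lower there. The summed level of the 5 was log2 6.87 to 7.22 at day 2, 7.12 to 7.39 at day 7 and 6.96 to 7.21 at day 21. Dnai1 averaged 4.68, 5.07 and 5.43 on these days and Tekt4 3.77, 4.02 and 4.03. Rsph1 was below log2 4.25 on all arrays, and Foxj1, the defining factor of these cells, was at 5.63, 5.60 and 5.62. The part of these cells was not tested.

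**Figure D5:**
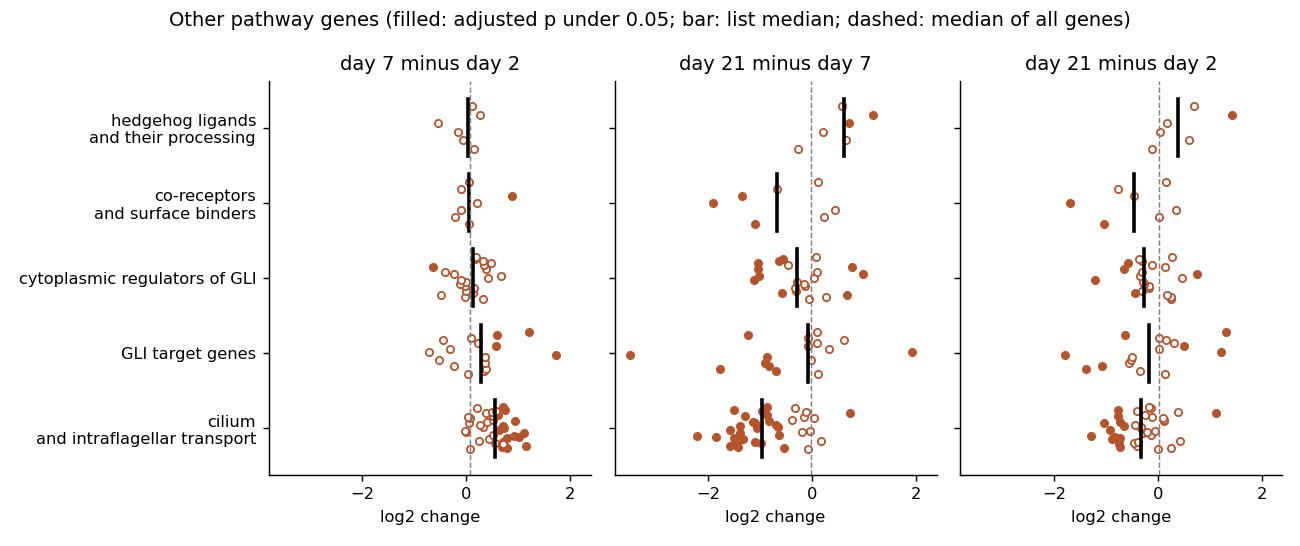
Log2 change (horizontal axis) of each measured gene of 5 pathway lists in the 3 comparisons, later day minus earlier, with filled points for an adjusted p under 0.05, black bars for list medians and a dashed line for the median of all genes. The cilium list lies to the right of the dashed line at day 7 against day 2 (median 0.55) and to the left at day 21 against day 7 (median -0.97), and the ligand list has a median of 0.62 in the second.

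Genes described elsewhere as GLI targets did not move as one group. Of 16 measured, 4 were higher at day 7 than at day 2, with none lower (median 0.28), where 7.02% of all genes were higher and 4.41% lower. The 4 were 1 without day 2 replicate 2, day 7 replicate 1 or day 7 replicate 2 and 2 with median centring or without day 2 replicate 1, day 2 replicate 3 or day 7 replicate 3, and the median was 0.12 without day 2 replicate 1. A gene was called lower with centring, with the mean of probe sets and without day 7 replicate 2. At day 21 against day 7, 7 were lower and 1 higher (median -0.07, and 0.11 with quantile normalization), where 24.4% of all genes were lower and 13.7% higher. Against day 2, 4 were lower and 3 higher (median -0.17), where 15.3% of all genes were lower and 8.8% higher. Hsd11b2, which inactivates glucocorticoids, read 6.80, 6.62 and 6.18 at day 2, 8.29, 8.14 and 8.34 at day 7 and 4.66, 4.69 and 4.91 at day 21. It rose to day 7 from day 2 (log2 change 1.73 ± 0.18, adjusted p = 0.000523) and was lower at day 21 than at day 7 (-3.50 ± 0.18, adjusted p = 2.02e-07) and than at day 2 (-1.78 ± 0.18, adjusted p = 5.36e-05). Foxf1, a mesenchymal transcription factor downstream of hedgehog ligand in mouse lung, averaged 8.06 ± 0.40 at day 21 and 8.97 ± 0.15 at day 7 (SD, n = 3 arrays per day), without overlap (limma log2 change -0.91 ± 0.24, adjusted p = 0.0118). Bmp4, a secreted growth factor of distal mesenchyme, was lower too (-0.69 ± 0.16, adjusted p = 0.00466). The cyclin genes Ccnd1 and Ccnd2, which drive entry into the cell cycle, fell at day 21 against day 7 by 1.77 ± 0.30 and 0.83 ± 0.22 (adjusted p = 0.00067 and 0.0136), in the comparison where 19 of 21 proliferation genes fell. Igfbp6, which binds insulin-like growth factors, was higher by 1.93 ± 0.23 at day 21 than at day 7 (9.76, 9.88 and 9.24 against 7.66, 8.09 and 7.33, adjusted p = 5.54e-05). Wnt5a, a Wnt ligand of mesenchyme, was higher at day 7 than at day 2 (6.89, 7.12 and 6.04 against 5.45, 5.32 and 5.63, a change of 1.22 ± 0.27, adjusted p = 0.0176) and still higher at day 21 than at day 2 (1.32 ± 0.27, adjusted p = 0.00604). The first of these was lost without day 2 replicate 2 or day 7 replicates 1 or 2 (adjusted p = 0.0693, 0.0643 and 0.0709). Tbx3, a T-box factor, had a change of -1.24 ± 0.16 at day 21 against day 7 on its brightest probe set (adjusted p = 8.69e-05), and the mean of its probe sets gave -0.08 (adjusted p = 0.742). Tbx3 and Mycn, a factor that promotes division, were called higher at day 7 than at day 2 (0.59 ± 0.16 and 0.58 ± 0.15, adjusted p = 0.035 and 0.0397). Both calls were lost without any 1 of the 6 arrays of those days and under median centring (adjusted p = 0.154 and 0.145). The mean of the Tbx3 probe sets gave 0.09 (adjusted p = 0.806), and Mycn also missed the threshold with quantile normalization (adjusted p = 0.0512) and with an intensity trend (adjusted p = 0.0564).

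The genes whose profile over the 9 arrays was most like that of Gli1, among 11936 genes with a mean of at least log2 4.25 and a symbol that is not a placeholder, were Plekhg2, Arsl and Nectin2 (Pearson r = 0.995 each) and Rpn1 and Cdk14 (0.993 each). Cdk14, a cyclin-dependent kinase, averaged 7.55 at day 2, 7.77 at day 7 and 5.91 at day 21. These values describe likeness only, since the arrays fall into days and share that difference. Gli2 correlated with Gli1 at 0.926 (rank 701) and Smo at 0.782 (rank 2591). Sufu and Hhip ran the other way, at -0.539 and -0.542.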

How the data were processed

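Expression was measured on 9 single-colour Affymetrix arrays. The authors deposited probe set intensity values on a linear scale. The submitters' processing notes name affy and RMA (versions and filters: not given in the sources used here). RMA corrects background, matches the arrays' distributions and combines the probes of a set, and dim sets then show smaller changes. The deposited arrays still had medians of log2 5.24 to 5.66. Log2 was taken, and 57 control probe sets were left out of the 31099. No columns of other series were present. Probe sets were named from the platform annotation when it gave 1 symbol (20826; 436 had several and 9780 none here). Symbols were checked through Entrez numbers against RefSeq, where 20758 were found and 0 changed.

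With limma 3.58.1 (R 4.3.3), lmFit and eBayes at default settings were run on all 31042 probe sets with a mean per day and no covariate, two-sided, with Benjamini-Hochberg adjustment within a comparison. The procedure was tested on simulated data. The p-values measure spread between litters, and 3 arrays per day limit precision. Alternatives were a further quantile normalization, centring on array medians, a filter at log2 4.25 (the 25th percentile of all values), the mean of a gene's probe sets, an intensity trend, fits of only the days compared, the litter number as a block, and leaving out each array. Arrays of a day correlated at 0.976 to 0.988.

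Genes named were all members, up to 4 called genes with the largest change per pathway list and comparison, and the 5 genes most like Gli1 (Ptch1, also planned, had no value). Shh, Dhh, Gas1, Cdon, Foxf1, Bmp4, Ccnd2, Grk2 and Ofd1 in day 21 against day 7, Kif3a and Kif3b were named after their values were seen. So were the markers Rsph1, Foxj1, Tekt1, Tekt4, Dnai1, Col1a1, Tcf21, Pdgfra, Dcn, Lum, Col3a1 and Vim. The members and lists were chosen with earlier results of these data known.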

Additional observations from a re-analysis of the deposited data

How the results depend on the processing

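Gli1 and Gli2 stayed lower and called at day 21 against both earlier days in all 16 alternatives. Their log2 changes against day 7 ranged over -2.04 to -1.82 for Gli1 and -2.39 to -1.94 for Gli2. For day 7 against day 2 the mean of a gene's probe sets called 1 member, Smo (0.48, adjusted p = 0.0288), where its brightest probe set called none. Values near 0 in that comparison changed sign without being called, Sufu to -0.0815 after quantile normalization and -0.0936 with centring on array medians, and Smo to -0.0158 with centring. With 1 array left out they ranged over -0.0895 to 0.15 for Sufu, -0.0529 to 0.152 for Smo and -0.00205 to 0.339 for Gli1. The cause was not tested. The replicate block, with the litter number as a term, called 0, 3 and 2 members for day 7 against day 2, day 21 against day 7 and day 21 against day 2, as without it. The labels number litters 1 to 3 on every day without saying whether these are the same litters. Deviations from the day means correlated at 0.405, 0.0766 and 0.223 for the same-numbered pairs of days 7 and 2. Every sample of those days correlated best with its own number, which does not settle whether the litters are the same. For the same-numbered pairs with day 21 the deviations correlated at -0.237 to 0.051. With 2 of 9 pairs above 0.1, the block stayed an alternative. Of the genes named from the other lists it ended the call of Mycn at day 7 (adjusted p = 0.0541). The alternatives for the cilium and other lists were chosen after seeing the data. Cilium genes higher at day 7 than at day 2 numbered 6 with centring, and 9 to 15 with 1 array left out. Centring moved the median change of all genes by -0.10 for day 7 against day 2 and by 0.11 for day 21 against day 7. The share of called genes that were higher was 61.4% for day 7 against day 2 (41% with centring), 36% for day 21 against day 7 (46.5% with centring, 47.9% after quantile normalization) and 36.5% for day 21 against day 2 (49.3% after quantile normalization). Probe sets near log2 4.25, such as those of Shh, Ihh and Cdon, leave little signal over background, and that of Sufu was dim too.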
